A study of Mus musculus with 32 samples.

Results

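CRTC coactivators, CREB factors and the cAMP feedback genes that these proteins are known to drive were measured in sorted lung tumor cells in which *Lkb1* had been kept, trapped or restored. The 10 genes were *Crtc1*, *Crtc2*, *Crtc3*, *Creb1*, *Crem*, *Nr4a1*, *Nr4a2*, *Nr4a3*, *Pde4b* and *Pde4d*. They were taken by gene name, and all 10 were found among the 53558 genes of the files and passed the filter on low counts in every comparison. Bulk RNA was sequenced in 32 libraries of neoplastic cells from mouse lung adenocarcinomas, all carrying a *Rosa26LSL-tdTomato* reporter. *KT* tumors kept wild-type *Lkb1* and were untreated (n = 4). Non-restored tumors were homozygous for *Lkb1XTR*, a gene trap that Cre turns on at tumor initiation (n = 10). In 6 of these libraries the mice carried the recombinase *FLPo-ERT2* and received vehicle, and in 4 they lacked it and received tamoxifen. Restored tumors carried *Lkb1XTR* on both alleles with *FLPo-ERT2* and received tamoxifen in doses of 4 mg for 2 weeks, which removes the trap (n = 7). The same designs with *Trp53* deleted gave *Trp53*-deficient non-restored tumors (7 libraries under 4 animal names) and *Trp53*-deficient restored tumors (n = 4, each under its own name).

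*Trp53* wild-type tumors were taken 24 to 27 weeks after initiation and *Trp53*-deficient tumors after 16 to 19 weeks, so that age and *Trp53* status cannot be told apart. Restored mice of both backgrounds were female, whereas the other groups held both sexes. Cre was delivered by a lentivirus that the labels do not limit to a cell type, *KT* mice received a lower dose of it, and the labels do not say which *Trp53* wild-type libraries share a mouse. By the description of the study, these non-restored and restored libraries outnumber the mice they came from, so that some share a mouse. In these groups n counts libraries, and p-values over them are too small for a statement about mice. *Trp53*-deficient libraries were grouped by the name in their titles. Each name is called an animal below, but the labels do not show that every name is a separate mouse. Total counts per library ran from 1302482 to 5943951, with the lowest group median in *KT* (1766310). Summed lung epithelial markers lay between 6785 and 56839 CPM (counts scaled to a common library size), and the summed immune markers between 6.40 and 96.6 CPM. Summed fibroblast markers had medians of 36.3 CPM in *KT*, 92.6 CPM in non-restored and 140 CPM in restored tumors and reached 956 CPM in a *Trp53*-deficient restored library, and endothelial markers reached 74.5 CPM. *Stk11*, the gene of LKB1, was at 16.2 to 27.2 CPM in *KT* libraries, at 0 to 2.46 expected counts in each non-restored library of either background, and at 11.7 to 22.2 CPM after restoration (8.45 to 14.8 CPM without *Trp53*).

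LKB1 is a kinase that activates the salt-inducible kinases (SIKs) among others. SIKs phosphorylate CRTC proteins, which are then held in the cytoplasm by 14-3-3 proteins. Unphosphorylated CRTC proteins enter the nucleus and join CREB at cAMP response elements. Genes switched on in this way include the NR4A nuclear receptors and the phosphodiesterases of the PDE4 family, which break down cAMP and so close a feedback loop. CRTC activity is controlled mainly at the protein level, which RNA does not show.

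CREB binds the palindrome TGACGTCA and, more weakly, its core TGACG. Promoter sequence from RefSeq (build GRCm38.p6) covered 8 of the 10 genes, all but *Crtc2* and *Crem*. The 250 bases before each start were searched on both strands. *Nr4a1*, *Nr4a2* and *Nr4a3* held 4 cores each, *Pde4b* held 1 in one of its 4 windows, and none was found in the windows of *Creb1*, *Crtc1*, *Crtc3* and *Pde4d*. *Pde4d*, with 20 annotated transcripts, had only 1 window, so any other start of it was not searched. Among 32851 promoters of the same length, 17.8% held at least 1 core and 0.137% held at least 4. The palindrome, present in 1.55% of all windows, was in none of these. A match of letters is a description and does not show binding. The windows with a core are printed 5′ to 3′ on the strand of the gene, because they hold the letters that CREB is known to read in the genes described as its targets. Capitals mark the core in either orientation (TGACG or CGTCA). The *Nr4a1* window is chr15:101266596-101266845 (plus strand), the *Nr4a2* window chr2:57124004-57124253 (minus strand), the *Nr4a3* window chr4:48045055-48045304 (plus strand) and the *Pde4b* window chr4:102421305-102421554 (plus strand).
Nr4a1: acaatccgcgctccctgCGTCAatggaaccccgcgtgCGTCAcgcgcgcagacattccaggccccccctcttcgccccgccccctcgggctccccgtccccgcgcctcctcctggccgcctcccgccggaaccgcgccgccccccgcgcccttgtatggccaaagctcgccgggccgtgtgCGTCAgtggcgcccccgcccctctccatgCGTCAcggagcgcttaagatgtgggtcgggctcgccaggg
Nr4a2: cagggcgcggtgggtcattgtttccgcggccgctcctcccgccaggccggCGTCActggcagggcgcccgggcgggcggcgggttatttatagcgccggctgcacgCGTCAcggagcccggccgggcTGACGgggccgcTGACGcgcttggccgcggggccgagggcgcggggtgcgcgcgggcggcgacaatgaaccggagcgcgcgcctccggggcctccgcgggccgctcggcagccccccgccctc
Nr4a3: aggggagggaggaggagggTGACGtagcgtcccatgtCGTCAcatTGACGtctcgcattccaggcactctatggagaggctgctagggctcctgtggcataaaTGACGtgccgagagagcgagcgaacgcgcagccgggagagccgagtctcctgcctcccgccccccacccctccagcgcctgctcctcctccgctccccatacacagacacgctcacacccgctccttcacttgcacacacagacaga
Pde4b: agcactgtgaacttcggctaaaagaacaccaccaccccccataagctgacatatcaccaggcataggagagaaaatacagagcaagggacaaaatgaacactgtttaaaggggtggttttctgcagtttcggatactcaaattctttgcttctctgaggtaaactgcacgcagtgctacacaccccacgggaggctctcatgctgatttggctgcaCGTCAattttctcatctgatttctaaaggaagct

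In *Nr4a1* the cores started 233, 213, 69 and 40 bases before the start that RefSeq gives. In *Nr4a2* they lay at 200, 144, 123 and 111 bases, and in *Nr4a3* at 231, 213, 205 and 147 bases. The single match of *Pde4b* was 34 bases upstream.

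The genes differed widely in level. On the TPM scale, which corrects for transcript length, *Nr4a1* ranked first in all 5 groups and *Crtc1* last. In non-restored tumors *Nr4a1* stood at 140 TPM ± 56.9 (SD, n = 10). It was followed by *Pde4d* (55.3 ± 9.69), *Pde4b* (48.8 ± 15.3), *Nr4a2* (45.6 ± 42.6), *Crem* (40.2 ± 7.94) and *Creb1* (34.2 ± 6.51), and these neighbors in the order did not differ beyond their SDs. *Crtc2* (16.6 ± 4.29) and *Nr4a3* (15.8 ± 6.88) formed the next pair, also within their spread. *Crtc3* was at 6.83 TPM ± 3.37 and *Crtc1* at 2.27 ± 0.999. Counts behind these levels ranged from 2 to 52 per library for *Crtc1* and from 44 to 1751 for *Nr4a1*, so that *Crtc1* was measured least precisely. All counts of the 10 genes were whole numbers with a posterior SD of 0, so that no estimate split a read between genes.

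**Figure D1:**
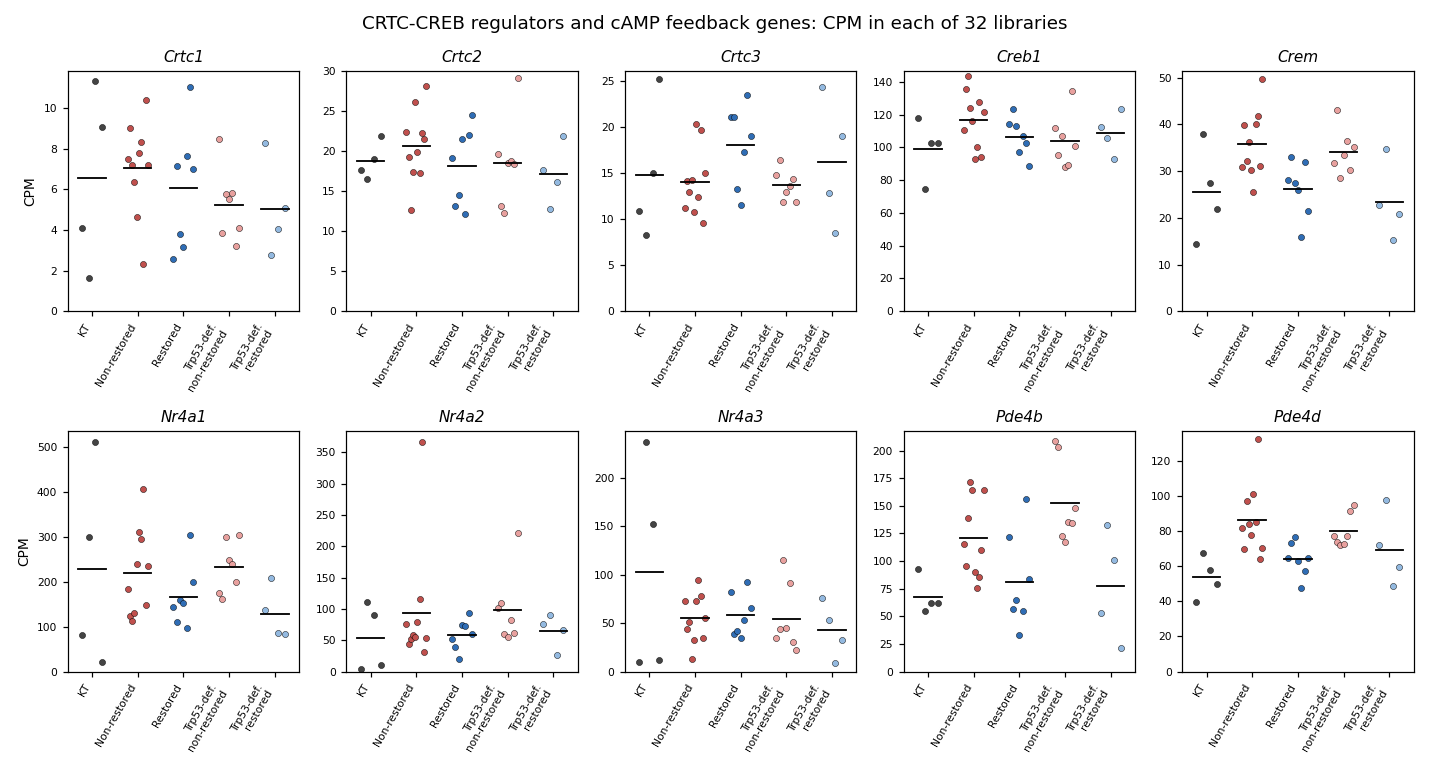
Expression of the 10 genes in CPM on a linear axis from 0, with 1 point for each of the 32 libraries in the 5 groups and a line at the mean of the libraries shown. *Pde4d* in non-restored tumors (64.2 to 132 CPM) lies mostly above *KT* (39.5 to 67.8 CPM), and the NR4A genes in *KT* split into 2 high and 2 low libraries.

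The coactivators were considered first. CRTC1, CRTC2 and CRTC3 are the proteins that SIKs keep out of the nucleus, and none of their genes passed the test in any comparison. *Crtc2*, the most abundant of the 3 in TPM, was at 18.8 CPM ± 2.33 (SD, n = 4) in *KT*, 20.7 ± 4.47 (n = 10) in non-restored and 18.1 ± 4.87 (n = 7) in restored tumors. *Crtc3* was at 14.9 CPM ± 7.48 in *KT*, 14.04 ± 3.59 in non-restored and 18.1 ± 4.37 in restored tumors. Restored tumors differed from non-restored ones by 0.36 on the log2 scale (SE 0.209, adjusted p 0.441 in edgeR's quasi-likelihood test), and 3 of 7 restored libraries lay above all non-restored ones. *Crtc1* was at 6.54 CPM ± 4.45, 7.06 ± 2.26 and 6.05 ± 3.02 in the same order. Intervals of log2 fold changes given here are approximate 95% intervals, by a normal approximation from the SE, and are narrower than the F test implies. For non-restored against *KT* tumors they ran from -0.28 to 0.53 for *Crtc2* and from -0.61 to 0.40 for *Crtc3*. That of *Crtc1* ran from -0.77 to 0.87. Differences inside these intervals were not detectable at this depth and spread.

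CREB1 is the DNA-binding partner of the CRTC proteins, and its gene did not pass in any comparison. *Creb1* was at 99.3 CPM ± 18.1 (SD, n = 4) in *KT*, 117 ± 17.1 (n = 10) in non-restored and 107 ± 11.5 (n = 7) in restored tumors. Its log2 fold change was 0.22 (SE 0.131, adjusted p 0.345 by edgeR) between non-restored and *KT* tumors and -0.13 (SE 0.107, adjusted p 0.631) between restored and non-restored tumors. Its intervals were the narrowest of the 10, from -0.03 to 0.48 and from -0.34 to 0.08.

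*Crem* encodes a relative of CREB1 whose short form ICER represses cAMP-responsive genes. The 4 *KT* libraries held 14.3, 38.0, 27.5 and 21.9 CPM. Non-restored libraries ran from 25.6 to 49.7 CPM with a median of 34.1, and all 10 were above the *KT* mean. Restored libraries ran from 16.0 to 33.1 CPM with a median of 27.4, and 7 of 7 were below the non-restored mean. The groups overlapped in both comparisons. The log2 fold change was 0.49 (SE 0.221, adjusted p 0.209 by edgeR) for non-restored against *KT* tumors and -0.44 (SE 0.177, adjusted p 0.223) for restored against non-restored tumors. Neither passed. Among female libraries alone the first value was 0.05 (adjusted p 0.957).

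*Pde4d* was the one gene of the 10 that passed the threshold (adjusted p under 0.05) in any comparison. PDE4D is a cAMP-specific phosphodiesterase, and its gene (chromosome 13, 108449948 to 109953461, GRCm38) spans 1504 kb. The *KT* libraries held 39.5, 67.8, 57.9 and 49.6 CPM. Non-restored libraries ran from 64.2 CPM (replicate 9) to 132 CPM (replicate 8), with a median of 82.9, and 9 of 10 lay above every *KT* library. Restored libraries lay between 47.9 and 76.6 CPM with a median of 64.5, and 7 of 7 were below the non-restored mean of 86.5. *Pde4d* rose by 0.69 on the log2 scale where *Lkb1* was trapped (SE 0.177, adjusted p 0.0234 by edgeR's quasi-likelihood test, against *KT*), and this was 1 of 10 members called against 5.86% of all 12636 genes tested. The call rested on the *KT* libraries: without *KT* replicate 1, 3 or 4 the adjusted p was 0.106, 0.0532 and 0.0797, at log2 fold changes of 0.57, 0.73 and 0.64. It was 0.222 among female libraries alone, with 2 *KT* libraries left (log2 fold change 0.58). The summed lung epithelial markers had medians of 39915 CPM in *KT*, 29435 CPM in non-restored and 40895 CPM in restored tumors, and the part of these and of the fibroblast markers in the difference was not tested. In bulk RNA, fewer cells of a type and less RNA per cell cannot be told apart.

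After restoration the log2 fold change of *Pde4d* was -0.44 (SE 0.142, unadjusted p 0.00514, adjusted p 0.123), which did not pass. In this comparison 0 of 10 members were called against 1.87% of all 12636 genes. An unadjusted p under 0.05 was found for 3 of the 10 members and for 1913 of the 12636 genes. Since restored mice were all female, sex was examined. Males of the non-restored group held 64.2 to 70.6 CPM of *Pde4d* (n = 3) and females 77.9 to 132 CPM (n = 7), with no overlap. Among females alone restored tumors were lower by -0.56 (SE 0.130, adjusted p 0.0468), and with sex as a covariate by -0.57 (SE 0.121, adjusted p 0.0159). The gap was of similar size against either control arm, with -0.46 for the tamoxifen arm (adjusted p 0.346) and -0.42 for the vehicle arm (adjusted p 0.134). Restored and *KT* tumors did not differ beyond their spread (log2 fold change 0.25, interval -0.11 to 0.61), and among female libraries the value was 0.03.

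*Pde4b* encodes the second feedback phosphodiesterase (chromosome 4, 102087543 to 102607259). The *KT* libraries held 92.6, 54.6, 62.4 and 62.0 CPM. Non-restored libraries ran from 76.0 to 171 CPM with a median of 113, and 7 of 10 lay above every *KT* library. Restored libraries ran from 33.3 to 156 CPM with a median of 64.4, and 4 of 7 lay below every non-restored library. The log2 fold changes were 0.83 (SE 0.324, adjusted p 0.1404 by edgeR) for non-restored against *KT* and -0.57 (SE 0.259, adjusted p 0.291) for restored against non-restored tumors, neither of which passed. The control arms differed in level. The 6 vehicle libraries averaged 141 CPM ± 32.6 and the 4 tamoxifen libraries 91.9 ± 14.6. The log2 difference of restored tumors was -0.79 from the vehicle arm (adjusted p 0.218) and -0.17 from the tamoxifen arm (adjusted p 0.865).

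**Figure D2:**
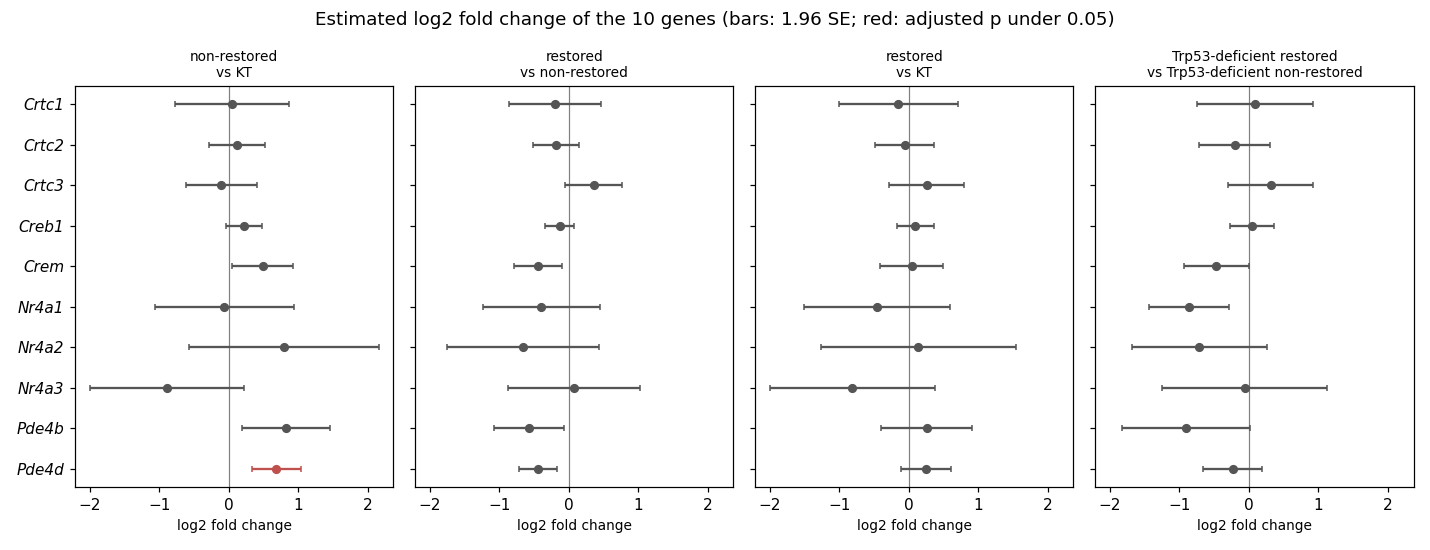
Log2 fold changes of the 10 genes from edgeR in 4 comparisons, with bars for the approximate 95% interval (normal approximation from the SE) and red for an adjusted p under 0.05. Only *Pde4d* in non-restored against *KT* tumors (0.69) is red, and most bars cross 0.

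The NR4A receptors are immediate targets of cAMP signaling and the genes with the largest spread between libraries. *Nr4a1* (chromosome 15, 101254269 to 101274795) was at 81.0, 300.1, 511 and 20.99 CPM in *KT* replicates 1 to 4. *Nr4a2* (chromosome 2, 57106830 to 57124003) was at 3.40, 112, 89.5 and 11.0 CPM in these libraries, and *Nr4a3* (chromosome 4, 48045153 to 48086447) at 10.2, 237, 152 and 11.5 CPM. Replicates 1 and 4, both from males, were low for all 3 genes, and replicates 2 and 3, both from females, were high. The split is of 2 libraries against 2, and sex and library cannot be told apart in it. Outside *KT*, non-restored males and females overlapped for each gene.

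In non-restored tumors *Nr4a1* ran from 113 to 406 CPM (median 209), *Nr4a2* from 31.9 to 366 (median 55.9) and *Nr4a3* from 13.1 to 94.7 (median 53.6). In restored tumors the ranges were 96.6 to 305 CPM (median 152), 19.8 to 93.8 (median 60.4) and 34.8 to 92.6 (median 53.02). For all 3 genes the groups overlapped, and no comparison passed. The log2 fold change of restored against non-restored tumors was -0.39 for *Nr4a1* (SE 0.430, adjusted p 0.736 by edgeR), -0.66 for *Nr4a2* (SE 0.555, adjusted p 0.636) and 0.08 for *Nr4a3* (SE 0.486, adjusted p 0.970). The value of *Nr4a2* rested on non-restored replicate 8 and was -0.08 without it, and that of *Nr4a3* turned to -0.03 among female libraries. Non-restored against *KT* tumors gave -0.06, 0.80 and -0.89 in the same order (adjusted p 0.964, 0.557 and 0.396). The interval of *Nr4a2* there, from -0.57 to 2.16, was the widest of the 10 members.

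Because NR4A transcripts also rise within minutes of tissue dissociation, they were set beside 16 other immediate early and stress genes, among them *Fos*, *Jun*, *Egr1* and *Atf3*. The summed level of those genes ranged from 2350 CPM (*KT* replicate 4) to 10759 CPM (*KT* replicate 1) in *KT*, from 4964 to 9410 CPM in non-restored and from 7188 to 11665 CPM in restored libraries, and no gene of the list was at 0 in all libraries of a group. *KT* replicate 1 thus combined a high sum with low NR4A counts. Non-restored replicate 8 had the lowest sum of its group and the highest *Nr4a1* and *Nr4a2*. Over the 21 *Trp53* wild-type libraries, with group means removed, *Nr4a1* gave Pearson correlations of 0.587 with *Fos*, 0.655 with *Egr1*, 0.566 with *Jun* and 0.941 with *Atf3*. In the same order *Nr4a2* gave 0.009, 0.202, -0.041 and 0.591, and *Nr4a3* gave 0.272, 0.364, 0.311 and 0.679. The part of dissociation in the NR4A levels was not tested. None of the 16 genes passed between restored and non-restored tumors (median log2 fold change 0.40 with 14 of 16 positive, against -0.01 over all genes), and *Jun* had the smallest p (log2 fold change 0.72, SE 0.263, adjusted p 0.183 by edgeR). Between non-restored and *KT* tumors *Dusp1*, a phosphatase that dampens MAP kinase signaling, was called at 1.14 (SE 0.291, adjusted p 0.0226). This call held in 18 of 23 edgeR and DESeq2 fits, with log2 fold changes from 0.63 to 1.46 and adjusted p up to 0.457. The losses included those without *KT* replicate 1 (1.08, adjusted p 0.0915) or 4 (0.87, adjusted p 0.0791).

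**Figure D3:**
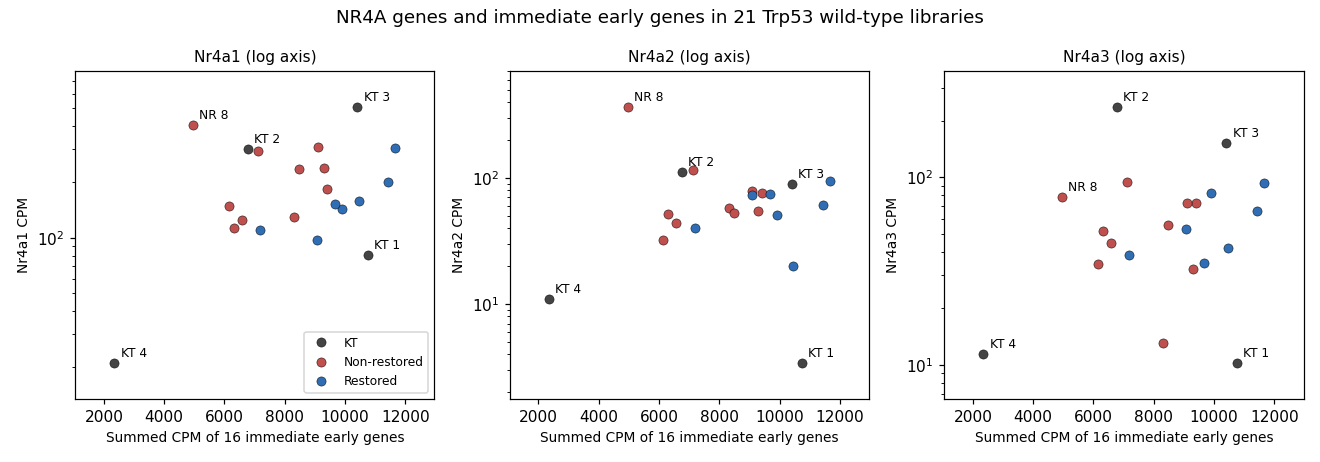
CPM of *Nr4a1*, *Nr4a2* and *Nr4a3* (log axis) against the summed CPM of 16 immediate early genes (linear axis) in the 21 *Trp53* wild-type libraries, with the *KT* libraries and non-restored replicate 8 (NR 8) labeled. *KT* 1 has a summed level of 10759 CPM with an *Nr4a2* level of 3.40 CPM, and NR 8 one of 4964 CPM with 366 CPM.

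The genes most like each member were sought over the 21 *Trp53* wild-type libraries, by Pearson correlation of log2 CPM after removing group means, among 14545 genes. These values describe libraries that share depth and composition. *Nr4a1* was most like *Atf3* (r = 0.941), *Wsb1* (0.940) and *Nfkbia* (0.935). *Nr4a2* was most like *Pcf11* (0.921), *Spty2d1* (0.892) and *Dusp10* (0.878), and *Nr4a3* was most like *Topors* (0.912), *Tob2* (0.872) and *Siah2* (0.851). Among themselves the NR4A genes gave 0.713 (*Nr4a1* with *Nr4a2*), 0.789 (*Nr4a1* with *Nr4a3*) and 0.786 (*Nr4a2* with *Nr4a3*). The other members had weaker neighbors. The best were *Mob2* (0.8004), *Trp53i11* (0.786) and *Ccnyl1* (0.766) for *Pde4d*, and for *Pde4b* they were *Fyn* (0.776), *Gm12245* (0.772) and *Scarb1* (0.765). *Pde4b* and *Pde4d* themselves gave -0.274. *Crem* was nearest to *Ppp2r2d* (0.782), *Atxn7* (0.759) and *Ubxn8* (0.757), and *Creb1* to *Rpl3* (0.796), *Rtcb* (0.789) and *Gm43362* (0.786). *Crtc1* was nearest to *Il10rb* (0.817), *Ifnar1* (0.777) and *Ift22* (0.761), *Crtc2* to *A730011C13Rik* (0.764), *Ppp2r5d* (0.763) and *Caml* (0.725), and *Crtc3* to *Pigh* (0.775), *Hexa* (0.748) and *Gm48139* (0.707).

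Restored and *KT* tumors were compared to ask how tumors with *Lkb1* returned differ from tumors that never lost it. None of the 10 members passed, against 0.459% of all genes, and 0 had an unadjusted p under 0.05, against 1333 of all 12636 genes. Their log2 fold changes ran from -0.81 (*Nr4a3*, SE 0.608) to 0.26 (*Pde4b*, SE 0.333), with a median of 0.07 against 0.01 over all genes. For comparison, the median of the members was 0.17 in non-restored against *KT* tumors (7 of 10 positive, 0.03 over all genes) and -0.30 in restored against non-restored tumors (2 of 10 positive, -0.01 over all genes). These comparisons share their libraries.

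The effect of restoration was then measured without *Trp53*, where libraries of one animal were summed. *Nr4a1* was at 213, 245, 199 and 304 CPM in the 4 non-restored animals and at 137, 209, 86.4 and 84.6 CPM in the 4 restored ones, with animal 2 of the restored group inside the range of the others. Its log2 fold change was -0.86 (SE 0.293, unadjusted p 0.0157, adjusted p 0.803 by edgeR). The 16 immediate early and stress genes were lower with it, with a median log2 fold change of -0.27 and 0 of 16 positive (0.02 over all genes, 3 at an unadjusted p under 0.05, 0 called by edgeR). Their summed level had a median of 10297 CPM (8620 to 15083) in non-restored and 7648 CPM (6443 to 9945) in restored libraries, and their part in the *Nr4a1* values was not tested. *Pde4b* was at 178, 125, 135 and 148 CPM without restoration and at 53.3, 133, 101 and 21.5 CPM with it (log2 fold change -0.90, SE 0.469, adjusted p 0.803). *Crem* was at 33.3, 34.8, 30.3 and 35.1 CPM against 22.8, 34.7, 15.3 and 20.8 CPM (-0.47, SE 0.239, adjusted p 0.803). *Pde4d* was at 74.5, 74.9, 91.5 and 94.9 CPM against 71.9, 97.9, 48.6 and 59.8 CPM (-0.24, SE 0.215, adjusted p 0.849). For *Nr4a1*, *Pde4b*, *Crem* and *Pde4d* alike, 3 of the 4 restored animals lay below every non-restored animal and the other did not, being above all of them for *Pde4d*. The other NR4A genes did not share this order. *Nr4a2* was at 89.4, 67.6, 61.4 and 220 CPM against 75.7, 89.4, 26.1 and 66.5 CPM (-0.71, SE 0.496, adjusted p 0.806), with 1 restored animal below every non-restored one. *Nr4a3* was at 63.8, 66.2, 30.5 and 21.9 CPM against 75.9, 53.2, 8.55 and 32.6 CPM (-0.06, SE 0.606, adjusted p 0.984), with 1 restored animal below and 1 above all others. Of the 10 members 0 were called, as were 0% of the 12518 genes tested by edgeR, with 748 genes at an unadjusted p under 0.05 and 23 genes called by DESeq2. *Stk11*, the restored gene itself, was thus not called either. It was called in 5 of 14 fits, at log2 fold changes of 4.74 to 5.61 over all 14. The lack of calls here therefore does not show that the members were unchanged. The coactivators and *Creb1* lay between -0.21 (*Crtc2*) and 0.31 (*Crtc3*).

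The difference of the restoration effect between the *Trp53* backgrounds was tested directly as an interaction. It was called for 0 of 10 members and for 0% of 13705 genes (424 at an unadjusted p under 0.05, none of them a member). The largest difference among the members was that of *Nr4a1*, -0.51 (SE 0.469, interval -1.43 to 0.41). The 16 immediate early and stress genes had a median interaction of -0.74 with 0 of 16 positive (0.01 over all genes), and 8 of them had an unadjusted p under 0.05 with 0 called. *Trp53* loss itself was compared at either state of *Lkb1*. Among non-restored tumors 0 of 10 members were called against 0.598% of genes, with *Crtc1* at -0.53 (SE 0.367, adjusted p 0.452 by edgeR). Among restored tumors 0 of 10 were called against 0.372%, with *Nr4a3* at -0.45 (SE 0.470, adjusted p 0.661).

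Paralog use was measured as each gene's share of the summed TPM of its family, which does not depend on how libraries are scaled. *Nr4a1* made up 73.7% ± 15.3 (SD, n = 4) of NR4A transcripts in *KT*, 70.6% ± 8.46 (n = 10) in non-restored and 66.7% ± 9.84 (n = 7) in restored tumors. *Crtc2* made up 53.6% ± 10.5, 64.3% ± 9.80 and 61.7% ± 13.04 of CRTC transcripts. *Pde4d* and *Pde4b* made up 51.3% ± 9.33 and 44.2% ± 9.45 of PDE4 transcripts in non-restored tumors, and *Pde4a* and *Pde4c* 1.03% ± 0.628 and 3.39% ± 1.86. Of 40 share comparisons 0 passed after adjustment (two-sided exact permutation tests), and 3 had an unadjusted p under 0.05. The smallest p belonged to *Pde4a*, a minor member at 2.6% ± 1.197 in restored against 1.03% in non-restored tumors (exact permutation p 0.00288, adjusted 0.115).

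**Figure D4:**
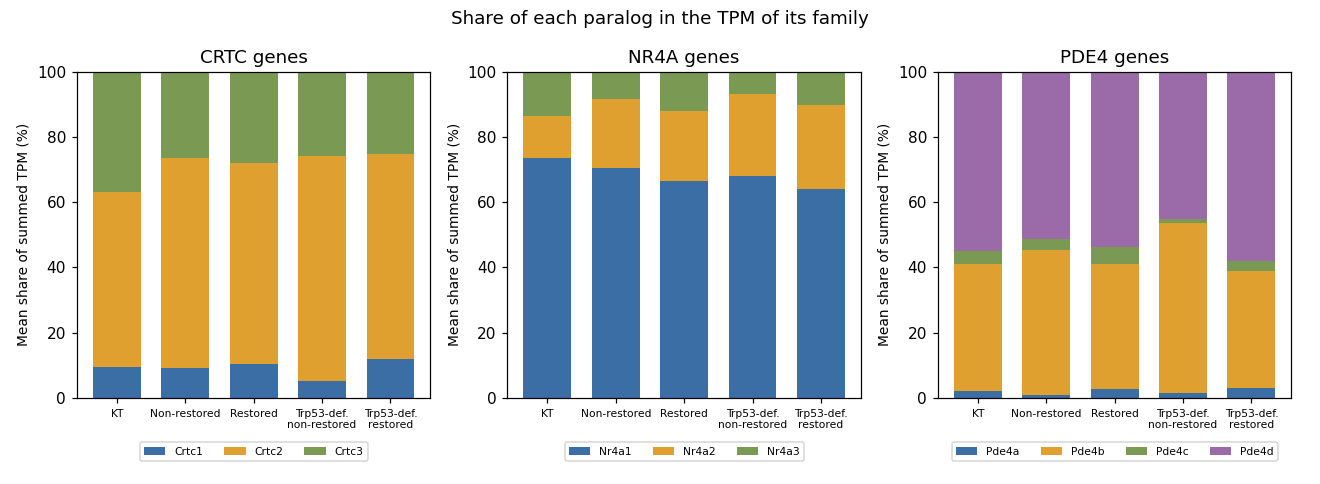
Mean share (%) of each paralog in the summed TPM of its family, stacked from 0 to 100 for the 5 groups. *Nr4a1*, *Crtc2* and the pair of *Pde4b* and *Pde4d* make up most of their families in every group.

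Isoform use was read from the mean transcript length that RSEM gives, weighted by transcript abundance. *Pde4b* has 13 annotated transcripts in the files, from 476 to 4304 bases. Its mean length was 3805 bases ± 169 (SD, n = 4) in *KT* tumors. It was 3637 bases ± 69.9 (n = 10) where the trap stayed and 3793 bases ± 146 (n = 7) after restoration. The difference between restored and non-restored tumors had an exact permutation p of 0.00175 (adjusted over 35 tests 0.0612), just short of the threshold. When at least 20 counts were required, the lengths and p of *Pde4b* were unchanged. The adjusted value was then 0.0490, because fewer tests were adjusted for. *Crem*, with 39 transcripts, had mean lengths of 1399 bases ± 154, 1424 ± 115 and 1347 ± 166 in the same order, within their spread. Of the 35 tests 0 passed and 3 had an unadjusted p under 0.05.

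The other genes of the pathway were taken from lists chosen with earlier results of these data known. Counts of calls in these lists are therefore descriptive and do not test enrichment. Of 15 tested regulators that set where CRTC proteins are, *Sik1* and *Sfn* were called in both comparisons of non-restored tumors and the other 13 in neither, against 5.86% of all genes called against *KT* and 1.87% for restoration. *Sik1* (chromosome 17, 31844250 to 31855804) encodes a SIK that is itself induced by cAMP. It was at 62.5 CPM ± 18.7 in *KT*, 125 ± 38.4 in non-restored and 68.8 ± 11.4 in restored tumors. It rose by 0.99 (SE 0.226, adjusted p 0.0112 by edgeR) in non-restored against *KT* tumors, where all 10 non-restored libraries lay above all *KT* libraries, and fell by 0.85 on the log2 scale after restoration (SE 0.180, adjusted p 0.0133). The first call was lost without *KT* replicate 1 (log2 fold change 0.82, adjusted p 0.0560) and among females, where 2 *KT* libraries remain (0.76, adjusted p 0.248). The second was lost with the tamoxifen arm alone as control (-0.92, adjusted p 0.0897). *Sfn*, the gene of 14-3-3σ, was at 5.49 CPM ± 3.17 in *KT*, 15.1 ± 5.97 in non-restored and 5.01 ± 2.62 in restored tumors, and moved by 1.41 (adjusted p 0.0470) and -1.54 (adjusted p 0.0131). Its first call held in 6 of 23 fits, and the second was lost with the tamoxifen arm alone (-1.65, adjusted p 0.123).

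Of 4 adenylyl cyclases and of 11 PKA genes or anchors tested, 1 each was called in both comparisons of non-restored tumors. Of all genes 5.86% were called against *KT* and 1.87% for restoration. *Adcy6*, which makes cAMP, was at 40.6 CPM ± 7.86 in *KT*, 24.1 ± 3.98 in non-restored and 40.0 ± 12.9 in restored tumors (log2 fold changes -0.76, adjusted p 0.0213, and 0.74, adjusted p 0.0166). The other 3 cyclases tested were not called. *Prkar2a*, a regulatory subunit of PKA, was at 99.5 CPM ± 20.2, 154 ± 27.2 and 101 ± 20.3 (0.63, adjusted p 0.0269, and -0.61, adjusted p 0.0180), and the other 10 PKA genes or anchors tested were not called. The first calls of both were lost without *KT* replicate 1, 3 or 4, at log2 fold changes of -0.73 to -0.70 for *Adcy6* and 0.52 to 0.66 for *Prkar2a*. Over all edgeR and DESeq2 fits the first call held in 18 of 23 for *Adcy6* (adjusted p up to 0.405). For *Prkar2a* it held in 19 of 23 (adjusted p up to 0.466). The second calls held in 24 of 28 fits for each gene, with adjusted p up to 0.117 for *Adcy6* and 0.0977 for *Prkar2a*. Among the losses were the fit without restored replicate 7 (0.68, adjusted p 0.0511, for *Adcy6* and -0.56, adjusted p 0.0536, for *Prkar2a*) and that among females alone (0.74 and -0.51).

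Of 11 other phosphodiesterases tested, 3 were higher in non-restored tumors than in *KT* (5.86% of all genes were called in either direction). *Pde8a* was at 17.3 CPM ± 7.08 against 3.50 ± 2.00 (log2 fold change 2.31, SE 0.493, adjusted p 0.00674 by edgeR) and *Pde3b* at 14.5 ± 10.8 against 2.65 ± 1.02 (2.40, SE 0.586, adjusted p 0.0171). *Pde10a* was at 0 or 1 counts in each *KT* library and at 17.3 CPM ± 9.70 in non-restored tumors, with 2 counts in replicate 8 and 8 to 133 in the others (adjusted p 0.00978). It was lower after restoration, at 2.01 CPM ± 1.95 (log2 fold change -3.18, SE 0.709, adjusted p 0.0201). This call held in 24 of 28 edgeR and DESeq2 fits (adjusted p up to 0.117), and 1 of the losses was that without restored replicate 7 (-2.94, adjusted p 0.0525). The call of *Pde3b* held in 19 of 23 fits, and the losses included those without *KT* replicate 1 (2.51, adjusted p 0.0510) or 4 (2.24, adjusted p 0.0673). Among female libraries, with 2 of *KT* left, all 3 calls against *KT* were lost, at log2 fold changes of 1.93 for *Pde8a* and 2.52 for *Pde3b*. None of 7 Gs-coupled receptors and G proteins and none of 9 other CREB-type factors and coactivators was called in either comparison. The smallest p among the CREB-type factors after restoration belonged to *Creb3l1* (0.49, adjusted p 0.170). Of 14 tested CREB targets outside the 10 members, only *Sik1* (in both comparisons) and *Dusp1* (in that with *KT*) were called, against 5.86% of all genes against *KT* and 1.87% for restoration. These are the same calls as given above for other lists, which share these genes. In restored against *KT* tumors none of the genes of these lists was called. *Pde8a* was at 14.2 CPM ± 9.19 after restoration (log2 fold change against *KT* 2.04, SE 0.504, adjusted p 0.0768) and *Pde3b* at 9.35 ± 3.89 (1.75, SE 0.600, adjusted p 0.249), and for both all 7 restored libraries lay above every *KT* library.

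**Figure D5:**
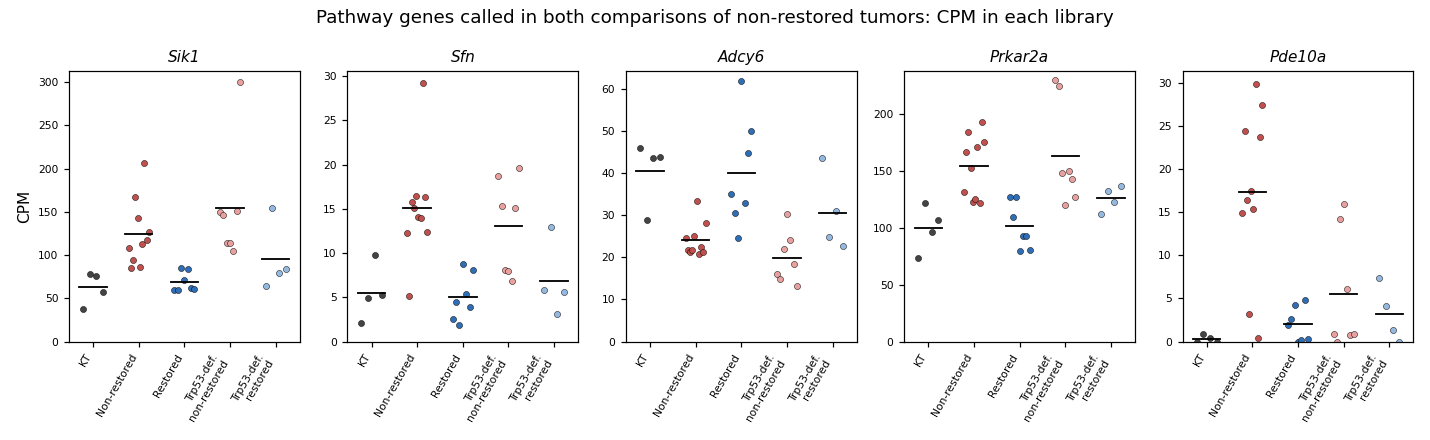
CPM (linear axis from 0) of the 5 pathway genes called both between non-restored and *KT* and between restored and non-restored tumors, with 1 point per library and a line at the mean of the libraries shown. *Sik1*, *Sfn*, *Prkar2a* and *Pde10a* are highest and *Adcy6* is lowest in non-restored *Trp53* wild-type tumors when set beside *KT* and restored tumors.

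Without *Trp53*, *Sik1* was at 137, 110, 150 and 300.2 CPM in non-restored and 64.3, 155, 79.2 and 83.75 CPM in restored animals (-0.83, SE 0.368, adjusted p 0.803 by edgeR), and no gene of the lists was called. *Trp53*-deficient non-restored tumors had more *Klf6*, an immediate early zinc finger factor, than *Trp53* wild-type ones (0.92, SE 0.181, adjusted p 0.0159), a call lost without animal 1 (0.0875) or 4 (0.0905).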

How the data were processed

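Sorted tumor cells (negative for CD45, CD31, F4/80 and Ter119) from 32 libraries were sequenced after ribosomal RNA depletion. The authors aligned reads to mm10 with STAR 2.6.1d and estimated gene abundance with RSEM 1.2.30, per the submitters' notes and the methods. The deposited expected counts are RSEM's estimated counts and are not normalized. The deposited TPM values were scaled by the authors for effective length and library size, and the deposited mean transcript length and posterior SD of the count were used as score values. The authors' DESeq2 1.26.0 tables (fold changes, p-values) and normalized-count table were not used. GENCODE M21 (GRCm38) gave positions.

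Expected counts were rounded to whole numbers, filtered with filterByExpr and scaled by TMM. edgeR 4.0.16 (R 4.3.3, limma 3.58.1) fitted quasi-likelihood F tests, with Benjamini-Hochberg adjustment over all genes tested, called under 0.05. The 21 *Trp53* wild-type libraries shared a fit, as did the 8 *Trp53*-deficient animals and the 25 units used for the interaction and for *Trp53* loss. *Trp53*-deficient libraries with the same animal name in their titles were summed. Elsewhere libraries that share a mouse could not be identified from the labels and were treated as separate, so p-values measure the spread between libraries. CPM used TMM factors over all libraries, and a prior count of 2 was added for correlations. Shares and lengths (at least 10 counts) were tested by two-sided exact permutation. Alternatives included DESeq2 1.42.0 and those described in the closing section, and the procedure was tested on simulated data. The 10 members and all gene lists were chosen with earlier results of these data known. Genes named were the members, *Stk11*, called genes of each list or its gene with the smallest p (1 such gene is not reported here), and the 3 genes most like each member.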

Additional observations from a re-analysis of the deposited data

Results flagged for a closer look

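Among 50 sets of 4 to 10 values (10 genes in 5 groups), 1 held a value far from the others, where chance gives about 1 in 20. *Nr4a2* was at 366 CPM in non-restored replicate 8, and its gap to the next library was 0.750 of the range of the group, above the limit of 0.466. This library also held the highest *Nr4a1* (406 CPM), *Pde4d* (132 CPM) and *Sik1* (206 CPM) of the non-restored group.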

How the results depend on the processing

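The call of *Pde4d* against *KT* held in 18 of 23 fits. Outside left-out libraries it was lost with effective length offsets (0 members called) and among female libraries only (0 called). With DESeq2, 467 genes were called between restored and non-restored tumors, 168 between restored and *KT*, 23 without *Trp53*, 413 for *Trp53* loss in non-restored and 216 in restored tumors. Among female libraries 132 genes were called against *KT* for non-restored and 10 for restored tumors, and 1 member for restoration. Sex as a covariate gave 22 genes for restored against *KT* and 1 member for restoration. The tamoxifen arm alone gave 50 genes for restoration. Without *Trp53*, no filter on low counts gave 3 genes, effective length offsets 1 and unsummed libraries 1, and unsummed libraries gave 465 genes for *Trp53* loss in non-restored tumors. With at least 20 counts, 1 length test passed, that of *Pde4b*, on unchanged lengths adjusted over fewer tests. The cause of the other shifts was not tested. Depth limits the low genes most, since *Crtc1* had as few as 2 counts in a library.

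Leaving out 1 library or animal gave 145 to 319 called genes for restoration (145 without restored replicate 7) and 340 to 951 for non-restored against *KT* (340, 418 and 459 without *KT* replicates 1, 3 and 4), with 0 to 1 members called in the latter. It gave 21 to 57 genes for restored against *KT* (21 without *KT* 1, 22 without *KT* 4), 0 to 1 for restoration without *Trp53*, 0 to 1 for the interaction, 26 to 1450 for *Trp53* loss in non-restored tumors (1450 without non-restored replicate 8) and 25 to 64 in restored ones. It gave 0 to 1 passing length tests.

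Of 70 log2 fold changes of the members, 35 turned sign at least once, none of them called either way. For restoration the values became 0.28 for *Crtc1* with effective length offsets, -0.025 for *Nr4a3* among females, -0.35 for *Nr4a3* with sex as a covariate and -0.11 for *Nr4a3* with the tamoxifen arm. For restoration, leaving out 1 library or animal gave -0.072 to 0.21 for *Nr4a3*. For non-restored against *KT* the values became -0.050 for *Crtc1* with effective length offsets, -0.14 for *Crtc1* among females, -0.098 for *Crtc1* with the replicate block, -0.090 for *Crtc2* with the replicate block, 0.29 for *Crtc3* among females and 0.10 for *Nr4a1* with sex as a covariate. For non-restored against *KT*, leaving out 1 library or animal gave -0.24 to 0.45 for *Crtc1*, -0.29 to 0.27 for *Crtc3* and -0.46 to 0.71 for *Nr4a1*. For restored against *KT* the values became -0.31 for *Crem* among females, 0.23 for *Crtc1* with effective length offsets, 0.0086 for *Crtc1* with sex as a covariate, 0.26 for *Crtc2* with effective length offsets, 0.029 for *Crtc2* among females, 0.047 for *Crtc2* with sex as a covariate, -0.26 for *Crtc3* with effective length offsets, -0.76 for *Nr4a2* among females and -0.23 for *Nr4a2* with sex as a covariate. For restored against *KT*, leaving out 1 library or animal gave -0.011 to 0.20 for *Creb1*, -0.13 to 0.29 for *Crem*, -0.43 to 0.26 for *Crtc1*, -0.15 to 0.031 for *Crtc2*, -0.84 to 0.33 for *Nr4a1* and -0.23 to 0.73 for *Nr4a2*. For restoration without *Trp53* the values became -0.029 for *Crtc1* with unsummed libraries and 0.092 for *Nr4a3* with effective length offsets. For restoration without *Trp53*, leaving out 1 library or animal gave -0.038 to 0.17 for *Creb1*, -0.28 to 0.30 for *Crtc1* and -0.50 to 0.26 for *Nr4a3*. For the interaction the values became 0.051 for *Crtc2* with unsummed libraries, 0.012 for *Crtc3* with effective length offsets and 0.029 for *Nr4a2* with unsummed libraries. For the interaction, leaving out 1 library or animal gave -0.32 to 0.086 for *Crem*, -0.12 to 0.45 for *Crtc1*, -0.20 to 0.14 for *Crtc2*, -0.36 to 0.10 for *Crtc3*, -0.66 to 0.47 for *Nr4a2*, -0.61 to 0.14 for *Nr4a3* and -0.049 to 0.30 for *Pde4d*. For *Trp53* loss in non-restored tumors the values became 0.0049 for *Crem* with effective length offsets and 0.12 for *Crtc2* with effective length offsets. For *Trp53* loss in non-restored tumors, leaving out 1 library or animal gave -0.23 to 0.072 for *Crtc2*, -0.13 to 0.0077 for *Crtc3*, -0.34 to 0.77 for *Nr4a2* and -0.11 to 0.022 for *Pde4d*. For *Trp53* loss in restored tumors the values became 0.31 for *Crtc1* with effective length offsets. For *Trp53* loss in restored tumors, leaving out 1 library or animal gave -0.053 to 0.085 for *Creb1*, -0.24 to 0.012 for *Crtc2*, -0.43 to 0.041 for *Crtc3*, -0.089 to 0.38 for *Nr4a2*, -0.51 to 0.22 for *Pde4b* and -0.11 to 0.25 for *Pde4d*.

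Deviations of same-numbered libraries correlated over 0.1 in 5 of 7 pairs of restored and non-restored tumors and in 1 of 4 pairs with *KT* for each. Differently numbered pairs were not computed, so these values cannot decide whether the numbers pair samples. The main fits did not pair them, and a fit with the number as a block was an alternative. The replicate block changed no call of a member and moved no count of called genes by over 1.5 times, with *Pde4d* at 0.73 (adjusted p 0.0159) against *KT* and -0.43 (adjusted p 0.0877) for restoration.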
